A study of Mus musculus with 14 samples.

Results

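The 56 genes described here encode lysosomal hydrolases, lysosomal membrane proteins, the receptors that sort enzymes to the lysosome, transcription factors of lysosomal genes and subunits of the lysosomal proton pump. They were taken from a list of names, with the cathepsins left out, and all 56 are among the 9474 genes of the deposited tables. RNA was sequenced from macrophages of C57BL/6J mice in 2 experiments with 14 libraries. In culture, marrow monocytes spent 7 days in medium with CSF1, which macrophages need to survive, either alone (4 control libraries) or together with murine IL4 at 20 ng/mL (4 libraries). CSF1 was present in both groups, at 25 ng/mL by the growth protocol and at 20 ng/mL by the design text. In marrow, cells bearing the macrophage surface protein F4/80 were sorted 12 days after mice received acute myeloid leukemia (AML) cells, which carried an empty vector (3 control libraries) or an IL4 cDNA (3 libraries). Every marrow library therefore comes from a leukemic animal, and the labels name neither the AML line nor any pooling of animals. Nothing in the labels says that libraries of a group came from separate cultures or mice, and a p-value here is set against a spread that may be technical.

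Lysosomes are acidic compartments in which macrophages break down what they have engulfed and what they recycle from their own cytoplasm. Their enzymes are made in the endoplasmic reticulum, tagged with mannose 6-phosphate and carried by sorting receptors, while the vacuolar ATPase (V-ATPase) pumps protons inward and heavily glycosylated proteins shield the limiting membrane. The MiT/TFE transcription factors, among them TFEB and TFE3, raise many of these genes together through a short promoter sequence called the CLEAR element. Inherited loss of single hydrolases or membrane proteins causes lysosomal storage diseases, in which macrophages fill with undegraded lipid or glycan. IL4, a cytokine of type 2 immunity, drives macrophages to the state called alternative activation.

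The libraries are shallow, with 510307 to 781624 recovered reads and a median of 23 to 41 reads per gene. Genes with recovered reads among the members took 2.67% to 3.35% of a library's reads in culture and 0.789% to 0.889% in marrow. Marker genes bear on the label of the marrow cells. The 6 measured neutrophil markers of 14 listed took 6.31% to 7.34% of reads in marrow controls and 4.76% to 5.94% in marrow IL4 libraries, against 0.0233% to 0.0542% in culture, and S100a9 alone had 12728 to 19949 reads per marrow library. The 10 macrophage markers with reads, of 12 measured and 13 listed, took 0.228% to 0.254% in marrow controls and 0.194% to 0.233% in marrow IL4 libraries. In culture they took 0.98% to 1.05% in controls and 0.597% to 0.706% with IL4. Among them Mertk had 0 to 3 reads in marrow controls and 10 to 23 in marrow IL4 libraries, and Fcgr1 had 20 to 26 and then 2 to 4. Of the 4 measured monocyte markers, of 7 listed, 1 rose and 2 fell in marrow past the threshold. Ccr2 went from 449 to 530 reads in marrow controls to 23 to 46 with IL4, and Chil3 from 2205 to 2739 to 15723 to 24205. Chil3 also rose with IL4 in culture, from 2 to 6 reads to 15896 to 27681 (log2 fold change 12.58, adjusted p = 6.9e-09). Its rise in marrow therefore cannot be read as a count of monocytes. The 2 measured erythroid markers, of 10 listed, both fell in marrow, from 0.151% to 0.157% of reads to 0.0197% to 0.0275%. The part of these shifts in the values of the marrow comparison was not tested, and in bulk samples such as these fewer cells of a type and less RNA per cell cannot be told apart. In culture the osteoclast markers, of which 6 of 10 were measured, took 0.0348% to 0.12% of reads in controls and 0.329% to 0.342% with IL4, with 4 of the 6 higher and 2 lower past the threshold. With IL4 most of this share came from Atp6v0d2 (54 to 572 reads, then 1341 to 1500). Ctsk went from 8 to 18 reads to 289 to 357, while Tnfrsf11a went from 58 to 94 reads to 26 to 35 and Nfatc1 had a log2 fold change of -1.57 (adjusted p = 0.00192). Their part in the culture results was not tested either.

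On the deposited scale, lysosomal genes moved in both directions in culture. With IL4, 13 of the 56 rose and 11 fell past an adjusted p of 0.05, which is 23.2% and 19.6% of the members, and 32 did not pass. Among all genes 7.96% rose and 32.6% fell, since the median log2 fold change of all genes was -0.36 on the deposited scale, against -0.10 for the members. Relative to that shift, with every library centred on its own median, 21 members rose (37.5%; 14.4% of all genes) and 3 fell (5.36%; 12.7% of all genes), and the members' median became 0.26. All 13 rises are among the 21, and the 8 others are Cd68, Npc2, Glb1, Pla2g15, Atp6ap1, Atp6v1a, Atp6v1d and Atp6v1f. The members' median therefore changes sign with the scaling, and after centring 45 of the 56 had positive log2 fold changes and 11 negative ones. Of the 13 that rose on the deposited scale, 5 were V-ATPase subunits, and the others were Cd63, Psap, Gm2a, Igf2r, Gla, Man2b1, Naglu and Tpp1. The 11 that fell were Sgsh, Ppt1, Arsb, Scarb2, Cln3, Tfe3, Laptm5, Asah1, Gaa, Grn and Neu1, of which Sgsh, Ppt1 and Scarb2 remained below 0 past the threshold after centring.

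Fewer members passed in marrow than in culture. Marrow also had 3 libraries per group against 4 and a smaller share of reads on the members, and the part of either in the lower number was not tested. IL4-expressing AML cells went with 4 rises (7.14%) and 8 falls (14.3%), close to the 6.7% and 11.5% of all genes, and the median was -0.06 for the members and -0.06 for all genes. After centring 4 rose and 4 fell (7.14% each), against 9.45% and 8.92% of all genes. The members that rose were Cd63, Gaa, Neu1 and Atp6v1a, and those that fell were Ids, Cd68, Npc2, Igf2r, Asah1, Arsb, Psap and Galns. In both experiments together, 27 members passed in neither, which does not show that they were unchanged.

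**Figure D1:**
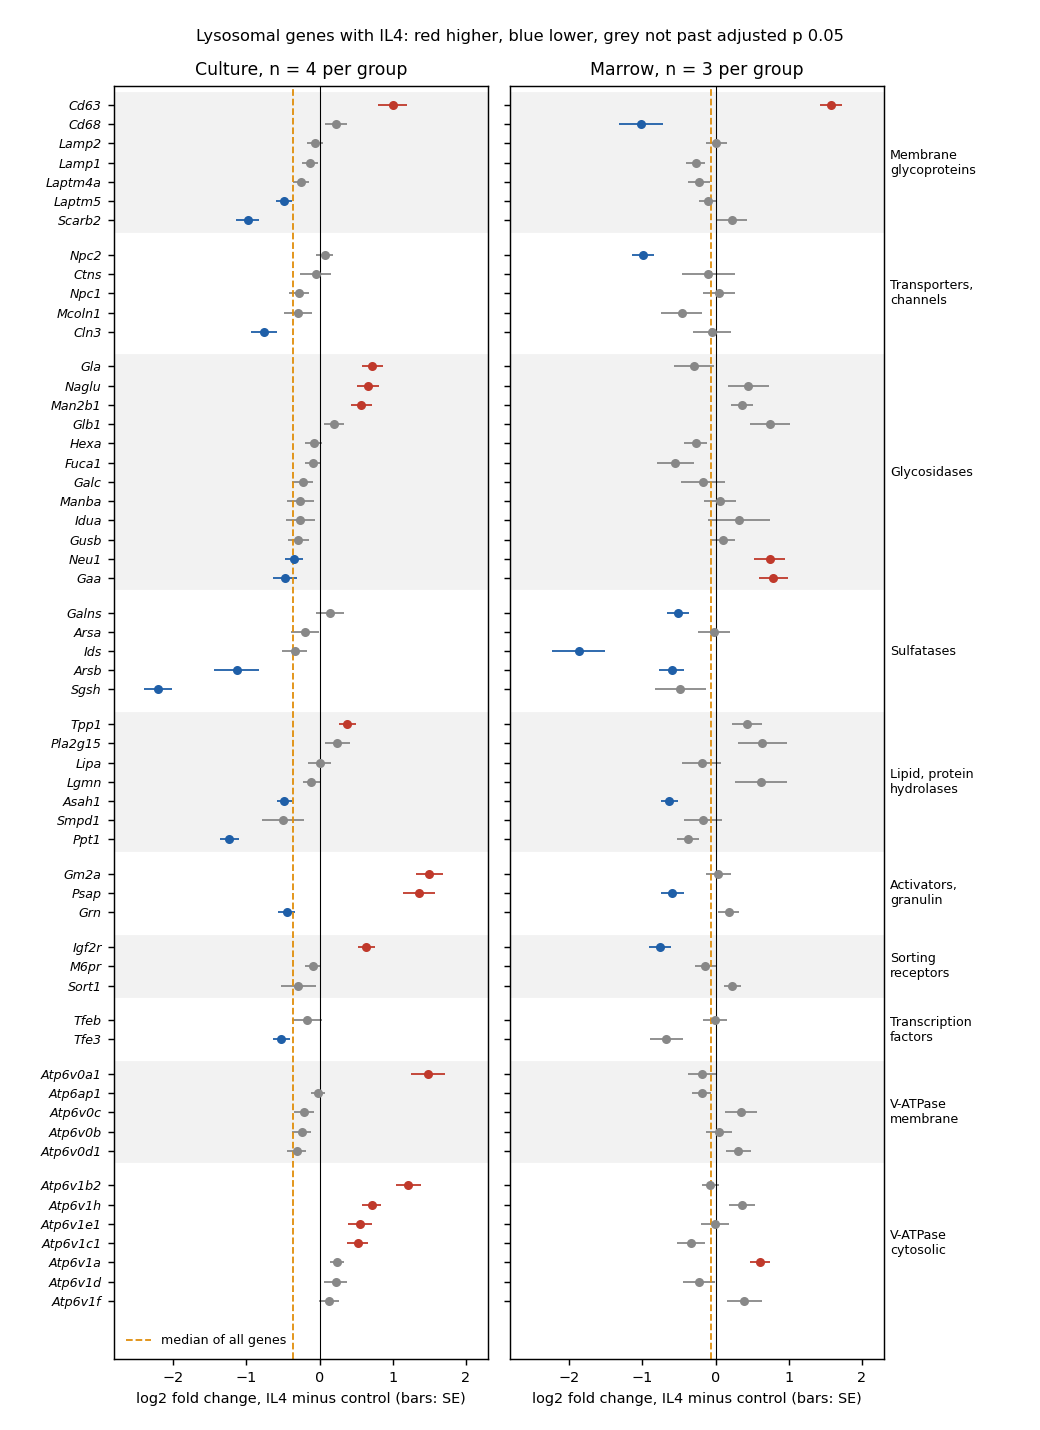
Log2 fold change (IL4 minus control) of each of the 56 genes with its standard error, in culture on the left and in marrow on the right, grouped by role. Red points rose and blue points fell past an adjusted p of 0.05, grey points did not pass, and the dashed line is the median of all 9474 genes (-0.36 in culture, -0.06 in marrow). The activators Gm2a and Psap and the pump subunits Atp6v0a1 and Atp6v1b2 lie farthest to the right in culture, and Sgsh lies farthest to the left.

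Promoter sequences show which members carry the CLEAR-type letters. RefSeq promoter windows (250 bases before to 50 bases after the start, assembly GRCm38.p6, which is mm10) were found for 48 of the 56 members. The 8-base core of the CLEAR element, TCACGTGA, which reads the same on both strands and contains the E-box CACGTG, was in 6 of the 48 (12.5%), namely Gla, Cln3, Mcoln1, Igf2r, Atp6v0d1 and Atp6v1a. It was in 2.53% of the 7322 genes of the tables that have a window and in 1.12% of all 27025 genes. CACGTG was in 14 of the 48 (29.2%), against 12.5% and 8.09%. The windows of Gla, Igf2r, Cln3, Mcoln1 and Atp6v1a are shown because these genes share the core but differ in their response, and those of Gaa, Naglu and Sgsh because they hold the E-box without the full core. Capitals mark the match, and each line runs 5′ to 3′ on the gene's own strand and ends before the RefSeq start of its window. That start can differ from the GENCODE gene positions given elsewhere. The lines of Sgsh and Naglu lie partly inside those positions and those of Cln3, Mcoln1 and Atp6v1a wholly.

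Gla (chrX:134601215-134601244, minus strand): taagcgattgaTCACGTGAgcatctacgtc
Gla (chrX:134601182-134601211, minus strand): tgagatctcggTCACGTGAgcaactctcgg
Igf2r (chr17:12769737-12769766, minus strand): gaacgaggacgTCACGTGAgcaggaggcgg
Cln3 (chr7:126583340-126583369, minus strand): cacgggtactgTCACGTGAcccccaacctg
Mcoln1 (chr8:3500462-3500491, plus strand): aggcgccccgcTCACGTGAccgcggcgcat
Atp6v1a (chr16:44139373-44139402, minus strand): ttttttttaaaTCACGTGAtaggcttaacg
Gaa (chr11:119267811-119267840, plus strand): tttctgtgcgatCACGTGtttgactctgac
Naglu (chr11:101070009-101070038, plus strand): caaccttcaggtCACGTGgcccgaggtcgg
Sgsh (chr11:119355522-119355551, minus strand): gggcctgccgtgCACGTGaccgtggggagc

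Of these genes Gla, Igf2r and Naglu rose in culture while Cln3, Sgsh and Gaa fell, and neither Mcoln1 nor Atp6v1a passed there. CACGTG was in the window of 3 of the 10 members with a window that rose in culture, 3 of the 10 that fell and 8 of the 28 that did not pass. The STAT6-type pattern, TTC and GAA with 4 bases between, was in 3 of the 48 (Gm2a, Cln3 and Tfeb; 6.25%), against 6.43% of the genes of the tables and 8.01% of all genes. A match describes letters in this window and is not a measured binding site.

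Membrane glycoproteins and tetraspan proteins split, with Cd63 the member that rose in both experiments. Of 7 such genes, Cd63 rose and Scarb2 and Laptm5 fell in culture, and Cd63 rose and Cd68 fell in marrow. The shares of all genes that rose and fell were 7.96% and 32.6% in culture and 6.7% and 11.5% in marrow. Cd63 encodes a tetraspanin of late endosomes, lysosomes and exosomes (chromosome 10:128900989-128912822). Its deposited log2 values in culture were 8.34, 8.23, 8.46 and 9.24 in the controls and 9.56, 9.56, 9.54 and 9.63 with IL4, each group listed here and below from library 1 upward, so control 4 lay above the other controls but below every IL4 library. The log2 fold change was 1.0 ± 0.20 (SE, n = 4 per group, adjusted p = 0.00324), or 2.00-fold. In marrow the values were 6.64, 6.61 and 6.43 in controls and 8.31, 8.20 and 7.86 with IL4. The groups did not overlap, and the log2 fold change was 1.57 ± 0.15 (SE, n = 3 per group, adjusted p = 0.000255), or 2.97-fold. The responses to IL4 in the 2 experiments did not differ past the threshold for Cd63 (difference -0.57 ± 0.28, adjusted p = 0.153). A processed copy, Cd63-ps, is annotated, and reads shared with it cannot be placed.

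Scarb2 encodes LIMP-2, the receptor that carries glucocerebrosidase to lysosomes (5:92441314-92506833). In culture its values were 5.18, 5.05, 5.17 and 5.18 in controls and 4.13, 3.86, 4.21 and 4.46 with IL4, with every IL4 library below every control. It fell by 0.98 ± 0.16 on the log2 scale (adjusted p = 0.00105), 1.97-fold. In marrow, Scarb2 gave 3.75, 4.14 and 3.80 in controls and 4.22, 4.06 and 4.08 with IL4, overlapping groups (0.22 ± 0.21, adjusted p = 0.514). Laptm5, a lysosomal membrane protein of blood cells, fell in culture (-0.49 ± 0.11, adjusted p = 0.00632), but relative to the median of all genes its change was -0.13 (adjusted p = 0.463).

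Cd68, the heavily glycosylated macrophage sialomucin used as a histological marker (11:69664213-69666153), had values of 8.40, 7.89, 8.19 and 8.35 in culture controls and 8.40, 8.52, 8.63 and 8.17 with IL4, which overlapped (0.22 ± 0.15, adjusted p = 0.245; 0.59 and adjusted p = 0.0207 after centring). In marrow it had 4.73, 4.86 and 4.72 in controls and 3.09, 3.81 and 4.35 with IL4, from 61 to 67 reads and 17 to 60 reads. All 3 IL4 libraries lay below the controls, with IL4 library 3 nearest to them. It fell by 1.02 ± 0.30 (adjusted p = 0.0445), a call that was lost without any 1 of IL4 libraries 1 and 2 and controls 1 to 3 (adjusted p 0.0798 to 0.121), after centring (-0.91, adjusted p = 0.0562), with quantile normalization (adjusted p = 0.053) and with no variance trend (adjusted p = 0.0774). The major membrane glycoproteins gave small values. Lamp1 (8:13159161-13175338) had 9.05, 8.98, 9.14 and 9.16 in culture controls and 8.83, 8.94, 8.91 and 9.10 with IL4 (-0.13 ± 0.11, adjusted p = 0.329), and 7.28, 7.47 and 7.47 against 7.05, 7.30 and 7.07 in marrow (-0.27 ± 0.13, adjusted p = 0.194). The groups overlapped in both experiments for Lamp1 and also for Lamp2, whose log2 fold changes were -0.06 and 0.01. Laptm4a, a transmembrane protein of late endosomes, had log2 fold changes of -0.25 and -0.22, neither past the threshold.

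Among the genes of lysosomal export, the cholesterol carrier Npc2 fell in marrow only by the test of each experiment, and its responses differed between them. NPC2 is the soluble protein that hands cholesterol to the membrane protein NPC1 for export. Npc2 (12:84754562-84773152) had 6.66, 6.67 and 6.71 in marrow controls and 5.46, 5.92 and 5.69 in marrow IL4 libraries, well apart, and fell by 0.99 ± 0.15 (adjusted p = 0.0025), 1.98-fold. In culture its values were 8.34, 8.10, 8.01 and 8.34 in controls and 8.28, 8.11, 8.29 and 8.37 with IL4, which interleave (0.07 ± 0.12, adjusted p = 0.677; 0.43 and adjusted p = 0.0352 after centring). The difference of the 2 responses was 1.05 ± 0.18 (adjusted p = 0.001). Npc1 itself did not pass in either experiment (-0.28 and 0.05).

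Cln3, whose loss causes juvenile Batten disease, fell in culture. Its values were 4.05, 3.88, 3.91 and 4.31 in controls and 3.18, 3.03, 3.40 and 3.50 with IL4, without overlap (-0.76 ± 0.18, adjusted p = 0.00919), and 3.70, 3.48 and 3.71 against 3.99, 3.17 and 3.58 in marrow (-0.05 ± 0.26, adjusted p = 0.917). Relative to the median of all genes the culture value of Cln3 was -0.40 (adjusted p = 0.163). Its exons share 442 bases with Apobr on the opposite strand, and the use of strand in counting is not given in the sources used here. The cystine exporter Ctns (-0.05 in culture, -0.10 in marrow) and the calcium channel Mcoln1 (-0.29 and -0.46) did not pass.

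Both sphingolipid activator genes, Psap and Gm2a, rose in culture. Prosaposin, from Psap, is cut into saposins that help hydrolases reach sphingolipids, and GM2A presents ganglioside GM2 for degradation. Psap (10:60277627-60302597) had 11.51, 10.96, 11.10 and 12.06 in culture controls and 12.74, 12.72, 12.68 and 12.93 with IL4, so that control 4 again lay nearest to the IL4 libraries. It rose by 1.36 ± 0.22 (adjusted p = 0.00113), 2.56-fold, and by 1.52 with both libraries numbered 4 left out. In marrow it went the other way, with 9.94, 10.11 and 9.89 in controls and 9.07, 9.61 and 9.51 with IL4, no overlap and a fall by 0.59 ± 0.16 (adjusted p = 0.0332). This marrow call was lost without IL4 library 1 or 3 or any control (adjusted p 0.0574 to 0.108) and after centring (-0.48, adjusted p = 0.0516). The difference of the responses, 1.94 ± 0.31, passed (adjusted p = 0.000485). No whole reads were recovered for Psap or Grn, so their values are the deposited log2 values alone.

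Gm2a (11:55098115-55113029) had 7.19, 6.97, 7.22 and 7.84 in culture controls and 8.89, 8.84, 8.96 and 8.53 with IL4. All IL4 libraries stood above all controls, and the rise was 1.50 ± 0.18 (adjusted p = 0.000211), 2.83-fold. In marrow the groups interleaved, with 6.96, 7.14 and 6.78 in controls and 6.69, 7.11 and 7.21 with IL4 (0.04 ± 0.17, adjusted p = 0.902), and the responses of Gm2a differed by 1.46 ± 0.27 (adjusted p = 0.00172). Progranulin, from Grn, is a secreted and lysosomal protein that binds prosaposin. Grn fell in culture by 0.45 ± 0.12 (adjusted p = 0.0169), which is -0.09 relative to the median of all genes (adjusted p = 0.621) and was not called without control 1 (adjusted p = 0.0534). In marrow the log2 fold change of Grn was 0.18 ± 0.14 (adjusted p = 0.4).

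Of the 3 sorting receptors, Igf2r changed in both experiments and in opposite directions. IGF2R is the cation-independent mannose 6-phosphate receptor, which delivers newly made hydrolases to endosomes. Igf2r (17:12682406-12769664) had 8.40, 8.34, 8.25 and 8.60 in culture controls and 9.01, 8.87, 9.16 and 9.12 with IL4, without overlap, and rose by 0.64 ± 0.12 (adjusted p = 0.00209), 1.56-fold. In marrow it had 6.61, 6.99 and 6.80 in controls and 5.93, 6.12 and 6.07 with IL4, again without overlap, and fell by 0.76 ± 0.15 (adjusted p = 0.00732), 1.70-fold. The difference, 1.41 ± 0.18, had the smallest adjusted p among the members (8.9e-05). The cation-dependent receptor M6pr (-0.09 in culture, -0.14 in marrow) and the multiligand receptor Sort1 (-0.29 and 0.23) did not pass in either.

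**Figure D2:**
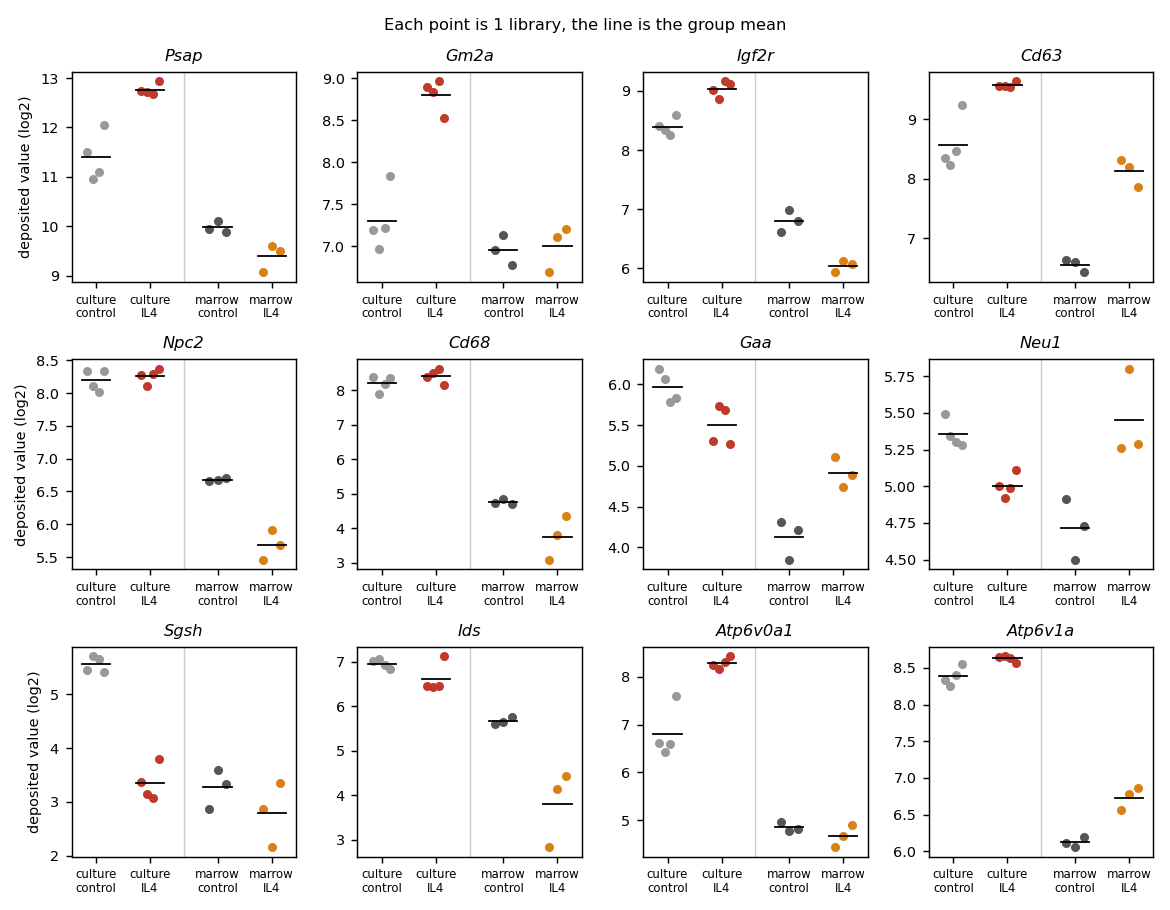
Deposited log2 value of 12 members in each library, with the group mean as a line and a separate vertical scale for each gene. Psap and Igf2r lie higher with IL4 in culture and lower with IL4 in marrow, Gaa and Neu1 lie lower in culture and higher in marrow, and Cd63 lies higher in both.

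Glycosidases, which trim sugars from glycoproteins, glycolipids and glycogen, held 3 rises (Gla, Naglu, Man2b1) and 2 falls (Gaa, Neu1) among 12 in culture, and 2 rises (Gaa, Neu1) in marrow, where 7.96% and 32.6% of all genes rose and fell in culture and 6.7% rose in marrow. After centring 4 rose and 0 fell in culture by limma (5 and 0 at an unadjusted p under 0.05), and the group's median moved from -0.16 to 0.20, while voom weights on the uncentred reads called 3 rises and 3 falls. In marrow 0 fell by limma (0 at an unadjusted p under 0.05, and 0 with voom weights). Gla, the alpha-galactosidase missing in Fabry disease (X:134588149-134601125), had 6.95, 6.80, 6.69 and 7.25 in culture controls and 7.70, 7.76, 7.67 and 7.46 with IL4, without overlap. It rose by 0.72 ± 0.14 (adjusted p = 0.00306), 1.65-fold. In marrow, on 7 to 20 reads, Gla gave 4.11, 4.10 and 3.70 against 3.58, 3.31 and 4.16 (-0.29 ± 0.27, adjusted p = 0.508). Naglu, which removes N-acetylglucosamine from heparan sulfate, rose by 0.66 ± 0.15 (adjusted p = 0.00688) and the mannosidase gene Man2b1 by 0.57 ± 0.14 (adjusted p = 0.0102) in culture. In marrow their log2 fold changes were 0.45 and 0.36, neither past the threshold, and their responses did not differ past it (adjusted p = 0.583 for Naglu and 0.512 for Man2b1).

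Gaa, the acid alpha-glucosidase that degrades glycogen (11:119267887-119285454), had 6.19, 6.06, 5.78 and 5.83 in culture controls and 5.30, 5.73, 5.68 and 5.27 with IL4, with the highest IL4 library just under the lowest control. It fell by 0.47 ± 0.16 (adjusted p = 0.0378). In marrow, Gaa had 4.31, 3.85 and 4.21 in controls (21 to 29 reads) and 5.11, 4.74 and 4.89 with IL4 (33 to 56 reads), and rose by 0.79 ± 0.20 (adjusted p = 0.0275), 1.73-fold. The sialidase gene Neu1 (17:34931253-34935953) had 5.49, 5.34, 5.30 and 5.28 in culture controls and 5.0, 4.92, 4.99 and 5.11 with IL4 (-0.35 ± 0.12, adjusted p = 0.0455). In marrow, Neu1 had 4.91, 4.50 and 4.73 in controls and 5.26, 5.80 and 5.29 with IL4 (0.74 ± 0.21, adjusted p = 0.0369). The responses of both genes differed between the experiments, by -1.26 ± 0.25 for Gaa (adjusted p = 0.00242) and -1.08 ± 0.22 for Neu1 (adjusted p = 0.00315).

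Each of these 4 calls within an experiment was lost under several alternatives. Relative to the median of all genes the culture values were -0.11 for Gaa (adjusted p = 0.666) and 0.02, of the other sign, for Neu1 (adjusted p = 0.935). In culture the call of Gaa was lost without control 1 or 2 or IL4 library 1 or 4 (adjusted p 0.0812 to 0.103), and that of Neu1 without any 1 of controls 1 to 3 and IL4 libraries 1 to 3 (adjusted p 0.0767 to 0.118). In marrow, Gaa was not called without IL4 library 1 or 3 or control 2 or 3 (adjusted p 0.0628 to 0.0894), and Neu1 without IL4 library 2 or 3 or any control (adjusted p 0.0533 to 0.116). The differences of the responses passed after centring as well (adjusted p = 0.0139 for Gaa and 0.0177 for Neu1). The other 7 glycosidase genes, Glb1, Gusb, Hexa, Manba, Idua, Galc and Fuca1, passed in neither experiment, with log2 fold changes of -0.29 to 0.20 in culture and -0.55 to 0.74 in marrow.

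Sulfatases, which strip sulfate from glycosaminoglycans and sulfolipids, gave falls and no rise in both experiments on the deposited scale, with 0 rises also at an unadjusted p under 0.05 and with voom weights (after centring in culture, Galns had a positive value at an unadjusted p under 0.05). Of 5, Sgsh and Arsb fell in culture, Ids, Arsb and Galns fell in marrow, and Arsa passed in neither, where 32.6% and 11.5% of all genes fell. After centring 1 fell in culture (Sgsh) and 1 in marrow (Ids), and Arsb (-0.50, adjusted p = 0.0676) and Galns (-0.41, adjusted p = 0.0714) were not called in marrow. Sgsh, the heparan N-sulfatase missing in Sanfilippo syndrome type A (11:119343425-119355536), had the largest change of any member. Its culture values were 5.46, 5.71, 5.65 and 5.41 in controls (105 to 138 reads) and 3.37, 3.15, 3.07 and 3.80 with IL4 (20 to 32 reads), far apart. It fell by 2.21 ± 0.19 (adjusted p = 2.4e-05), 4.63-fold, with a log2 fold change of -1.85 relative to the median of all genes. In marrow, Sgsh had 2.87, 3.60 and 3.34 against 2.86, 2.16 and 3.35 (-0.48 ± 0.35, adjusted p = 0.39), and the responses differed by -1.73 ± 0.39 (adjusted p = 0.00544). Its exons share 955 bases with Card14 on the opposite strand.

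Ids, the iduronate sulfatase missing in Hunter syndrome (X:70343069-70365084), fell most among the members in marrow. It had 5.61, 5.64 and 5.77 in controls (34 to 41 reads) and 2.84, 4.14 and 4.43 with IL4 (4, 10 and 19 reads), with IL4 library 1 lowest. The fall was by 1.87 ± 0.36 (adjusted p = 0.00693), 3.66-fold. In culture Ids had 7.03, 7.06, 6.92 and 6.83 in controls and 6.45, 6.44, 6.46 and 7.13 with IL4, where IL4 library 4 stood above all controls (-0.34 ± 0.17, adjusted p = 0.123). Without that library Ids changed by -0.51 and passed (adjusted p = 0.00675). The responses of Ids differed by 1.53 ± 0.41 (adjusted p = 0.0148).

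Arsb, which acts on dermatan and chondroitin sulfate (13:93771630-93943016), had 5.32, 5.80, 5.72 and 4.38 in culture controls and 4.25, 4.32, 4.44 and 3.68 with IL4, with control 4 inside the IL4 range. It fell by 1.13 ± 0.31 (adjusted p = 0.0146), 2.19-fold, and relative to the median of all genes by 0.77 (adjusted p = 0.0679). In marrow, Arsb had 5.67, 5.69 and 5.54 against 4.85, 4.95 and 5.29, and fell by 0.60 ± 0.17 (adjusted p = 0.0382). That call was lost without any 1 library other than IL4 library 3 (adjusted p 0.0801 to 0.111). Its exons share 1948 bases with the noncoding gene Gm26527 on the opposite strand. Galns fell in marrow by 0.51 ± 0.15 (adjusted p = 0.04) and was not called without any 1 library other than IL4 library 2 (adjusted p 0.0687 to 0.121).

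Among 7 lipid and protein hydrolases, Ppt1 and Asah1 fell and Tpp1 rose in culture, and Asah1 fell in marrow. Of all genes 32.6% fell and 7.96% rose in culture, and 11.5% fell in marrow. Ppt1, the palmitoyl-protein thioesterase missing in infantile Batten disease (4:122836242-122859175), had 7.32, 7.55, 7.40 and 7.08 in culture controls and 6.05, 6.02, 6.14 and 6.21 with IL4. These groups lie far apart, and the fall was by 1.23 ± 0.13 (adjusted p = 7.6e-05), 2.35-fold. In marrow, Ppt1 had 6.49, 6.82 and 6.83 against 6.30, 6.45 and 6.25 (-0.38 ± 0.15, adjusted p = 0.11), and the responses differed by -0.85 ± 0.19 (adjusted p = 0.00506). Ppt1 shares 129 exon bases with Cap1 on the opposite strand. Asah1, the acid ceramidase (8:41340197-41374773), had 10.04, 10.09, 10.06 and 10.09 in culture controls and 9.53, 9.55, 9.56 and 9.71 with IL4, and fell by 0.48 ± 0.10 (adjusted p = 0.0039), which is -0.12 relative to the median of all genes (adjusted p = 0.429). In marrow it had 8.26, 8.20 and 8.07 against 7.46, 7.55 and 7.64, without overlap, and fell by 0.63 ± 0.12 (adjusted p = 0.00691), or by 0.52 after centring (adjusted p = 0.0163). Its responses did not differ past the threshold (0.15 ± 0.14, adjusted p = 0.474).

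Tpp1, a lysosomal tripeptidyl peptidase, rose in culture by 0.38 ± 0.12 (adjusted p = 0.0272), a call lost without control 2 or 3 or IL4 library 1 or 3 (adjusted p 0.0665 to 0.0743). In marrow its log2 fold change was 0.43 ± 0.21 (adjusted p = 0.185). The cholesteryl ester hydrolase Lipa gave 0.00 ± 0.16 in culture and -0.19 ± 0.27 in marrow. Lgmn, the asparaginyl endopeptidase legumain, Pla2g15, the lysosomal phospholipase A2, and Smpd1, the acid sphingomyelinase, did not pass in either experiment (-0.50 to 0.24 in culture, -0.17 to 0.64 in marrow).

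The 2 transcription factor genes gave 1 fall, in culture, where 32.6% of all genes fell, and no rise (0 rises at an unadjusted p under 0.05 and with voom weights). Tfe3 (X:7762560-7775202) had 5.93, 6.16, 5.96 and 6.04 in culture controls and 5.35, 5.55, 5.54 and 5.57 with IL4, without overlap, and fell by 0.52 ± 0.12 (adjusted p = 0.00669). Relative to the median of all genes this was -0.16 (adjusted p = 0.365). In marrow, Tfe3 had 5.01, 5.02 and 4.77 against 4.38, 3.85 and 4.54, also without overlap, but did not pass by limma on the deposited values (-0.67 ± 0.22, adjusted p = 0.0643), while voom weights (adjusted p = 0.028) and a filter on a mean of at least 10 reads (adjusted p = 0.0472) called it lower. Tfeb (17:47737030-47792419) had 5.38, 5.10, 5.37 and 5.81 in culture controls and 5.27, 4.91, 5.06 and 5.75 with IL4, and 5.47, 5.26 and 5.17 against 5.21, 5.38 and 5.29 in marrow. Its groups overlapped in both (-0.17 ± 0.21, adjusted p = 0.551, and -0.01 ± 0.16, adjusted p = 0.978). These values are of mRNA, while both factors are regulated largely by moving between cytoplasm and nucleus.

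By limma, 5 of the 12 proton pump genes among the members rose and 0 fell with IL4 in culture, and 1 rose in marrow. The V-ATPase has a membrane sector that carries protons and a cytosolic sector that hydrolyses ATP. Of 12 pump genes 5 rose and 0 fell in culture on the deposited scale by limma, and 9 rose and 0 fell after centring, against 7.96% and 32.6% of all genes as deposited and 14.4% and 12.7% after centring. At an unadjusted p under 0.05 there were 6 rises and 1 fall (Atp6v0d1) on the deposited scale and 9 and 0 after centring, and voom weights called 5 rises and 1 fall. The 7 cytosolic subunits all had positive log2 fold changes, with a median of 0.52, and all 7 passed after centring. In marrow 1 of the 12 rose (Atp6v1a) and 0 fell, also at an unadjusted p under 0.05 and with voom weights, with a median of 0.02, and 1 of 12 is near the 6.7% of all genes that rose there. Outside the members, 14 other V-ATPase genes were measured. In culture 2 of them rose and 3 fell (median -0.09), or 4 and 1 after centring. In marrow 3 of them rose and 1 fell, or 3 and 0 after centring.

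Atp6v0a1, an isoform of the large membrane subunit a (11:101009452-101063719), had 6.61, 6.42, 6.60 and 7.59 in culture controls and 8.24, 8.16, 8.30 and 8.43 with IL4. Control 4 stood well above the other controls and below all IL4 libraries. The rise was 1.48 ± 0.23 (adjusted p = 0.000818), 2.78-fold, and 1.69 with both libraries numbered 4 left out. In marrow, Atp6v0a1 had 4.96, 4.78 and 4.81 against 4.44, 4.67 and 4.91 (-0.18 ± 0.19, adjusted p = 0.557). Atp6v1b2, the B subunit of the ATP-hydrolysing ring (8:69088646-69113711), had 8.02, 7.83, 7.79 and 8.58 in controls and 9.19, 9.15, 9.24 and 9.47 with IL4 in culture, and rose by 1.21 ± 0.17 (adjusted p = 0.000559), 2.31-fold. In marrow its values were 7.15, 7.16 and 7.19 against 6.95, 7.20 and 7.14 (-0.07 ± 0.12, adjusted p = 0.739). The responses of these subunits differed by 1.65 ± 0.31 for Atp6v0a1 (adjusted p = 0.00192) and 1.28 ± 0.23 for Atp6v1b2 (adjusted p = 0.00136).

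Atp6v1a, the catalytic A subunit of the same ring (16:44085402-44139705), behaved differently. It had 6.12, 6.06 and 6.20 in marrow controls and 6.56, 6.78 and 6.86 in marrow IL4 libraries, and rose by 0.61 ± 0.14 (adjusted p = 0.0159), 1.52-fold. The call was lost without IL4 library 3 or control 1 or 2 (adjusted p 0.0506 to 0.0581). In culture it had 8.34, 8.25, 8.40 and 8.55 in controls and 8.65, 8.66, 8.64 and 8.57 with IL4, which did not overlap but did not pass (0.24 ± 0.10, adjusted p = 0.0833). Without control 4 the value was 0.30 (adjusted p = 0.0347), and relative to the median of all genes it was 0.61 (adjusted p = 0.00359). The responses of Atp6v1a did not differ past the threshold (-0.36 ± 0.15, adjusted p = 0.101).

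The remaining pump members that rose in culture were Atp6v1h (0.71 ± 0.13, adjusted p = 0.00194), Atp6v1e1 (0.55 ± 0.16, adjusted p = 0.0221) and Atp6v1c1 (0.52 ± 0.14, adjusted p = 0.0148), all stalk or regulatory subunits of the cytosolic sector. Atp6v1e1 was not called without control 2 or 3 or IL4 library 1 or 2 (adjusted p 0.0581 to 0.0631). Atp6v0d1, which joins the sectors, had 5.77, 5.52, 5.80 and 5.48 against 5.39, 5.16, 5.37 and 5.40 in culture (-0.31 ± 0.13, adjusted p = 0.0863) and 5.45, 5.24 and 5.0 against 5.42, 5.53 and 5.66 in marrow (0.31 ± 0.17, adjusted p = 0.257). Its responses differed by -0.62 ± 0.21 (adjusted p = 0.042), and this call was lost without any 1 of 9 libraries, namely culture controls 1 and 3, culture IL4 libraries 1 to 3, marrow IL4 libraries 2 and 3 and marrow controls 2 and 3 (adjusted p 0.0569 to 0.111). The difference was -0.36 after centring (adjusted p = 0.237), -0.40 with quantile normalization (adjusted p = 0.185) and not called with no variance trend (adjusted p = 0.0526). Atp6ap1, Atp6v0b and Atp6v0c in the membrane sector (-0.24 to -0.02) and Atp6v1d and Atp6v1f in the cytosolic sector (0.22 and 0.13) did not pass in culture, and none of these 5 passed in marrow.

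**Figure D3:**
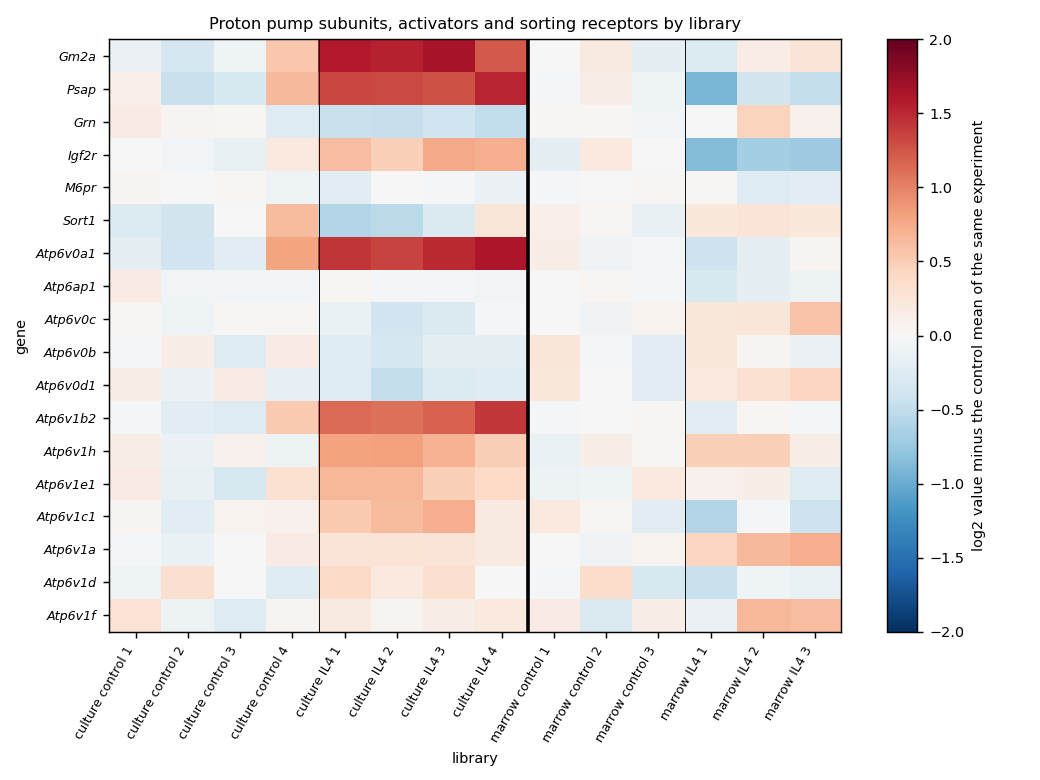
Heat map of the V-ATPase subunits, activator proteins and sorting receptors (rows) in the 14 libraries (columns), coloured by the log2 value minus the mean of the control libraries of the same experiment. Gm2a, Psap, Atp6v0a1 and Atp6v1b2 are high in all 4 culture IL4 libraries and intermediate in culture control 4.

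Culture control 4 lay toward the IL4 libraries for Psap, Gm2a, Cd63, Atp6v0a1 and Atp6v1b2. With both culture libraries numbered 4 left out, a choice made after seeing the data, 14 members rose and 12 fell, and the log2 fold changes of these 5 genes were 1.52, 1.77, 1.21, 1.69 and 1.32. Over all genes with reads, library 4 was the least like the others in both culture groups, by the chi-square statistic given below.

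Lysosome genes outside the list were counted for context. Of 189 listed genes of hydrolases, membrane transporters, other pump subunits, sorting and lysosome control, 164 were measured, of which 22 rose and 57 fell in culture (median -0.22; 43 rose and 16 fell after centring, with a median of 0.14) and 17 rose and 24 fell in marrow (median -0.04; 22 rose and 17 fell after centring). Of all genes 7.96% rose and 32.6% fell in culture and 6.7% rose and 11.5% fell in marrow. After centring these shares were 14.4% and 12.7% in culture and 9.45% and 8.92% in marrow. Atp6v0d2, the pump subunit d isoform known from osteoclasts and macrophages and one of the osteoclast markers above, rose in both, from 54 to 572 reads to 1341 to 1500 reads in culture (3.18 ± 0.53, adjusted p = 0.00131) and from 0 to 1 reads to 10 to 61 reads in marrow (5.23 ± 0.59, adjusted p = 0.000564, a fitted value that depends on the offset added to the reads). Mitf, a further MiT/TFE factor gene, rose in culture (0.98 ± 0.23, adjusted p = 0.00803) and gave -1.0 ± 0.31 in marrow (adjusted p = 0.0521). The prorenin receptor and pump accessory gene Atp6ap2 rose in marrow (0.84 ± 0.17, adjusted p = 0.00826) and gave -0.02 ± 0.11 in culture. The genes named here were picked after their values were seen.

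The last comparison asked where the response to IL4 differed between culture and marrow, which share no library. For 10 members the log2 fold change was higher in culture (17.9%; 6.45% of all genes) and for 7 it was higher in marrow (12.5%; 16.6% of all genes). After centring these numbers were 13 and 5, against 9.38% and 9.5% of all genes. Higher in culture were Psap, Atp6v0a1, Ids, Gm2a, Igf2r, Atp6v1b2, Cd68, Npc2, Gla and Atp6v1c1. Higher in marrow were Sgsh, Gaa, Scarb2, Neu1, Ppt1, Grn and Atp6v0d1. The difference for Grn was -0.37 after centring (adjusted p = 0.124), was not called with quantile normalization (-0.50, adjusted p = 0.0696) and was lost without marrow IL4 library 2 or marrow control 3 (adjusted p = 0.0553 and 0.0505). That for Atp6v0d1 was lost as given above, and that for Gla with voom weights (0.91, adjusted p = 0.0945). By the calls within each experiment, 1 member rose in both (Cd63) and 2 fell in both (Asah1, Arsb). Another 2 rose in culture and fell in marrow (Psap, Igf2r), and 2 fell in culture and rose in marrow (Gaa, Neu1). Of all genes 7.96% rose and 32.6% fell in culture, and 6.7% and 11.5% in marrow. Joint calls were not counted over all genes, so these numbers have no background. After centring Asah1, Arsb, Gaa and Neu1 were not called in culture, nor Psap and Arsb in marrow. The experiments differ in the source and purity of the cells, the dose and route of IL4 and the presence of leukemia, and these cannot be told apart. The neutrophil marker share of 4.76% to 7.34% in marrow and the marker shifts with IL4 given above stand beside all these differences, and their part in them was not tested.

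**Figure D4:**
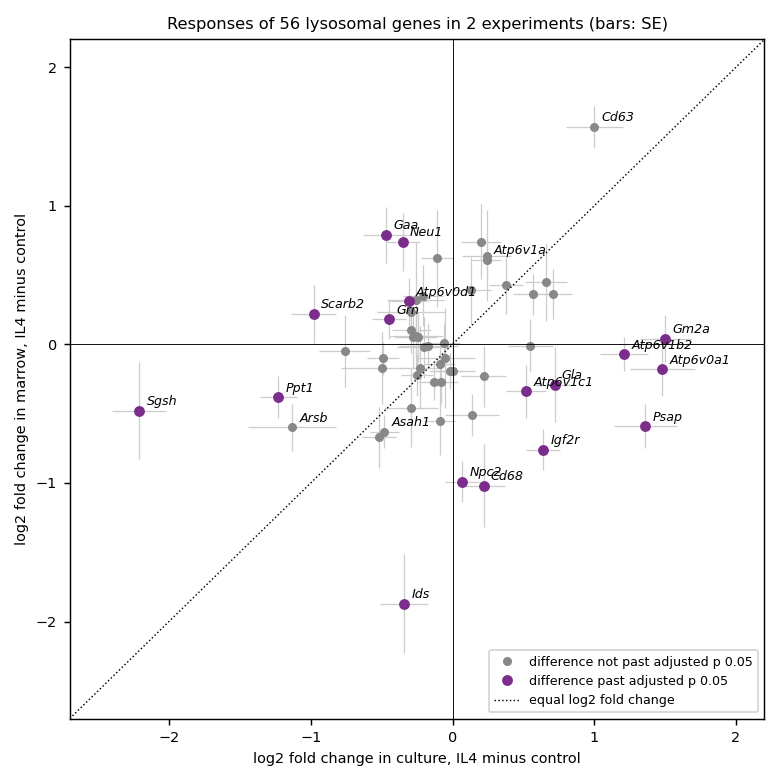
Log2 fold change with IL4 in culture (horizontal) against marrow (vertical) for the 56 genes, with standard errors as bars and equality as a dotted line. Purple points had responses that differed past an adjusted p of 0.05; Cd63 is the gene far out in the upper right, Psap and Igf2r lie at the lower right, and Gaa and Neu1 at the upper left.

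Levels were set side by side only within a library type and per length, as recovered reads per kilobase of exon per 1000000 recovered reads. Psap and Grn have no recovered reads and could not be ranked, so either may lie above the members named here. In culture controls the highest of the 54 members with reads were Cd68 (980 ± 161, SD, n = 4), Lgmn (875 ± 36.5), Hexa (705 ± 96.5), Lamp1 (693 ± 47.3) and Laptm5 (623 ± 41.7), and the spreads of neighbours such as Hexa and Lamp1 overlap. With IL4 the same 5 led, with Cd68 at 1120 ± 143 and Laptm5 at 438 ± 48.3. In marrow controls the order was another one, with Laptm5 (311 ± 5.86, SD, n = 3), Lamp1 (201 ± 15) and Laptm4a (119 ± 6.8) ahead of Cd68 (82.6 ± 4.56), which ranked 7 and moved to rank 18 in marrow IL4 libraries (43.2 ± 18.3). Lgmn ranked 2 in culture controls and 27 in marrow controls (21.4 ± 6.59).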

How the data were processed

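Per the labels' protocols, RNeasy Micro columns gave the RNA and the TruSeq RNA v2 kit the libraries. The submitters' processing notes name bcl2fastq, TopHat2 2.0.13 and mm10. How reads were counted and normalized, which genes were kept and whether strand was used is not given in the sources used here. The deposited values are log2 values, judged by the values themselves: each equals log2(reads + 0.5) plus 1 offset for the gene and 1 for the library. Removing the offsets returned whole reads for 9383 of 9474 genes (99%, largest misfit 0.0007 log2 under 100 reads). On tables simulated from these recovered reads by the same formula, the step solved 9337 of 9383 genes, all of these rightly within a small tolerance. The check does not cover the 91 genes without recovered reads.

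limma 3.58.1 (R 4.3.3) with a variance trend was run on the deposited log2 values of all 9474 genes in each table (residual degrees of freedom 6 for culture, 4 for marrow) and over all 14 libraries with 4 group means (10 degrees) for the difference of responses. No count model was used. Tests are two-sided, Benjamini-Hochberg adjusted over 9474 genes and called at an adjusted p below 0.05, and errors of log2 fold changes are SE. Alternatives were centring on the library median, quantile normalization, a mean of at least 10 reads, no variance trend, voom weights on recovered reads, a replicate block, leaving out each library, a z of both separate fits, and leaving out both culture libraries numbered 4. No pair of libraries of a group was as alike as sampling alone would make them (chi-square statistic over its degrees of freedom 1.34 to 5.63). Pairs that include library 4 gave 3.99 to 5.09 in culture controls and 4.02 to 5.63 in culture with IL4, and all other pairs 1.34 to 2.08. Gene positions and exon lengths are from GENCODE M21 on mm10, and promoter windows from RefSeq.

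The members and gene lists were chosen with earlier results of these data known. Values per library are given for the 6 largest rises and falls past the threshold in each comparison, the member of smallest p in each role, the 8 clearest differences of response, and Lamp1, Cd68, Psap, Tfeb and Tfe3.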

Additional observations from a re-analysis of the deposited data

Results flagged for a closer look

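Single libraries stood apart from the rest of their group, by Dixon's criterion at 4 samples, in 5 of 46 groups tested, where chance flags about 1 in 20. They were Scarb2 in culture control 2 (lowest, 5.05), Ids in culture IL4 library 4 (highest, 7.13), Tfe3 in culture IL4 library 1 (lowest, 5.35), Atp6v0a1 in culture control 4 (highest, 7.59) and Atp6v0d1 in culture IL4 library 2 (lowest, 5.16).

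The response in culture minus that in marrow passed the test of the difference for 17 members. On the log2 scale it was 1.94 for Psap, 1.65 for Atp6v0a1, 1.53 for Ids, 1.46 for Gm2a, 1.41 for Igf2r, 1.28 for Atp6v1b2, 1.24 for Cd68, 1.05 for Npc2, 1.01 for Gla and 0.86 for Atp6v1c1. It was -1.73 for Sgsh, -1.26 for Gaa, -1.20 for Scarb2, -1.08 for Neu1, -0.85 for Ppt1, -0.63 for Grn and -0.62 for Atp6v0d1.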

How the results depend on the processing

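In culture, centring gave 21 rises, 3 falls and a median of 0.26, and quantile normalization 4 falls and a median of 0.13. In marrow, centring gave 4 falls and a median of 0.04, quantile normalization a median of 0.02, and no variance trend 4 falls. Neu1 in culture changed sign after centring (0.02). Of the 164 other lysosome genes 43 rose and 16 fell in culture after centring, where 14.4% and 12.7% of all genes did. Leaving out 1 library gave 11 to 14 rises and 8 to 12 falls in culture, 1 to 3 rises and 4 to 6 falls in marrow, and 10 to 12 responses higher in culture and 5 to 8 higher in marrow. In these the arm left with fewer libraries shares the pooled spread. Same-numbered libraries did not deviate together (correlations -0.045 to 0.059), so the numbers were not taken as pairs, and with a replicate block 13 members rose and 9 fell in culture, 3 rose and 7 fell in marrow, and 10 and 7 responses differed. Under the block the differences of Gla (adjusted p = 0.0577) and Atp6v0d1 (adjusted p = 0.0844) were lost and that of Galns passed (adjusted p = 0.031). In culture the calls of Cd63, Scarb2, Psap, Gla, Man2b1, Naglu, Sgsh, Ppt1, Gm2a, Igf2r, Atp6v0a1, Atp6v1b2, Atp6v1c1 and Atp6v1h held under every alternative run, and in marrow those of Cd63, Npc2, Asah1, Ids and Igf2r. Some marrow values rest on few reads, Ids on 4 to 41 and Gla on 7 to 20 per library.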
